A study of Mus musculus with 2 samples.

Results

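The genes described here are 9 that are followed in vascular calcification and in cartilage formation: Mgp, Spp1, Sox9, Runx2, Alpl, Enpp1, Col2a1, Acan and Chad. They were taken by symbol from the 32285 genes of the deposited tables, and all 9 were found. The data are 2 single-cell RNA libraries from mouse vein grafts, 1 from conventional grafts and 1 from No-Touch grafts, where surrounding tissue is left on the transplanted vein. Both came from C57BL6/J mice of 10 to 12 weeks, and in both the cells were released with papain and then with papain, collagenase and dispase, and sorted as live, nucleated and without surface CD45, the antigen of leukocytes. How many animals or grafts went into a library was not stated, and the libraries may differ in the version of the 10x kit. Each group is a single library and nothing could be tested between groups. Values therefore describe the libraries alone, not what the graft types share, and intervals are exact at 95% and cover counting error only.

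Calcification of vessel walls is held back by proteins and small molecules that block the growth of calcium phosphate crystals. Mgp, matrix Gla protein, needs a vitamin K dependent change to act in this way, Enpp1 makes pyrophosphate outside the cell, and Alpl, tissue-nonspecific alkaline phosphatase, breaks pyrophosphate down. Spp1, osteopontin, is a secreted phosphoprotein that binds both mineral and integrins. Sox9 is the main transcription factor of cartilage and Runx2 that of bone, and vascular smooth muscle cells can take up both under stress in culture and in mouse models. Col2a1 (type II collagen), Acan (aggrecan, a large proteoglycan) and Chad (chondroadherin) are made in quantity by chondrocytes.

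All 9 are protein coding genes with these positions on GRCm38 in GENCODE vM21. Mgp lies at chr6:136872435-136875823 and Spp1 at chr5:104435118-104441050. Enpp1 lies at chr10:24637914-24712159 and Alpl at chr4:137741733-137796384. Sox9 lies at chr11:112782224-112787760 and Runx2 at chr17:44495987-44814797. Col2a1 lies at chr15:97975602-98004695, Acan at chr7:79053483-79115099 and Chad at chr11:94565047-94569127.

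RefSeq promoter stretches on GRCm38.p6, searched over the 250 bases before each start, were matched for 6 of the 9 genes with 8 starts. The letters TGTGGT, a core bound by RUNX factors, or their reverse ACCACA stood at 3 of the 8 starts. These starts are shown because they belong to Spp1 and Enpp1, whose levels are followed below beside those of Runx2, and to Runx2 itself. They lie at chr5:104434861-104435110 on the plus strand, chr10:24712160-24712409 on the minus strand and chr17:44814628-44814877 on the minus strand. Each is printed 5′ to 3′ as the gene is read, and capitals mark matches on either strand to the RUNX core and to the SOX forms ACAAAG (reverse CTTTGT) and ACAAT (reverse ATTGT).
Spp1: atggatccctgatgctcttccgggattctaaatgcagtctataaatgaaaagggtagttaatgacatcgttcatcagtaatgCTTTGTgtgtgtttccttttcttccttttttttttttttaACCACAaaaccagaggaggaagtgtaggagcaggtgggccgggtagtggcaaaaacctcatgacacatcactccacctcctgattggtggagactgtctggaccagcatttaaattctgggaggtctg
Enpp1: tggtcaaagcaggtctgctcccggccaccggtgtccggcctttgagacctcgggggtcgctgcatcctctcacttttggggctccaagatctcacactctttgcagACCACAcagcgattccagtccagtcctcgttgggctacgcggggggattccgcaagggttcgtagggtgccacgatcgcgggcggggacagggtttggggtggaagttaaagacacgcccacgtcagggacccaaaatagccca
Runx2: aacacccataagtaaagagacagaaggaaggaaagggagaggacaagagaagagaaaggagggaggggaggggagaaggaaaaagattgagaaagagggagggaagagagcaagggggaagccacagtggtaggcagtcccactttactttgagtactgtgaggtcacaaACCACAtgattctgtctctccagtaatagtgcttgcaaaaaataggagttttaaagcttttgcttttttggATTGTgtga
The RUNX core began 128 bases before the Spp1 start, 144 before the Enpp1 start and 80 before the Runx2 start. ACAAAG or its reverse stood at 4 of the 8 starts, among them the Spp1 start shown, and ACAAT or its reverse at 1, that of Runx2. Of 32851 promoter stretches of the same length, 14.05% held the RUNX core, 16.46% ACAAAG and 27.66% ACAAT, so such matches were frequent. They describe letters and are no measure of binding.

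Of 11899 conventional and 12450 No-Touch barcodes, 10458 and 11525 passed the filters, with medians of 16778 and 28472 UMIs, and 18 of the kept barcodes occurred in both libraries. Cells were put in classes by marker genes and UMIs were summed per class and scaled to counts per 1000000 (CPM). Fibroblasts, the matrix-making cells of the outer coat, numbered 6838 and 9257, smooth muscle cells 262 and 282, pericytes 232 and 114, blood endothelial cells 816 and 391, lymphatic endothelial cells 319 and 287 and Schwann cells of nerves 130 and 187. In their own class 8 of 8 fibroblast, 7 of 7 smooth muscle, 6 of 7 pericyte, 7 of 8 blood endothelial and 7 of 7 lymphatic endothelial markers were at 200 CPM or more in both libraries, and 7 and 6 of 8 Schwann cell markers. Gates made of chondrocyte and of osteoblast markers held 0 cells in both libraries, which allows a share of up to 0.0287% and 0.026%.

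**Figure D1:**
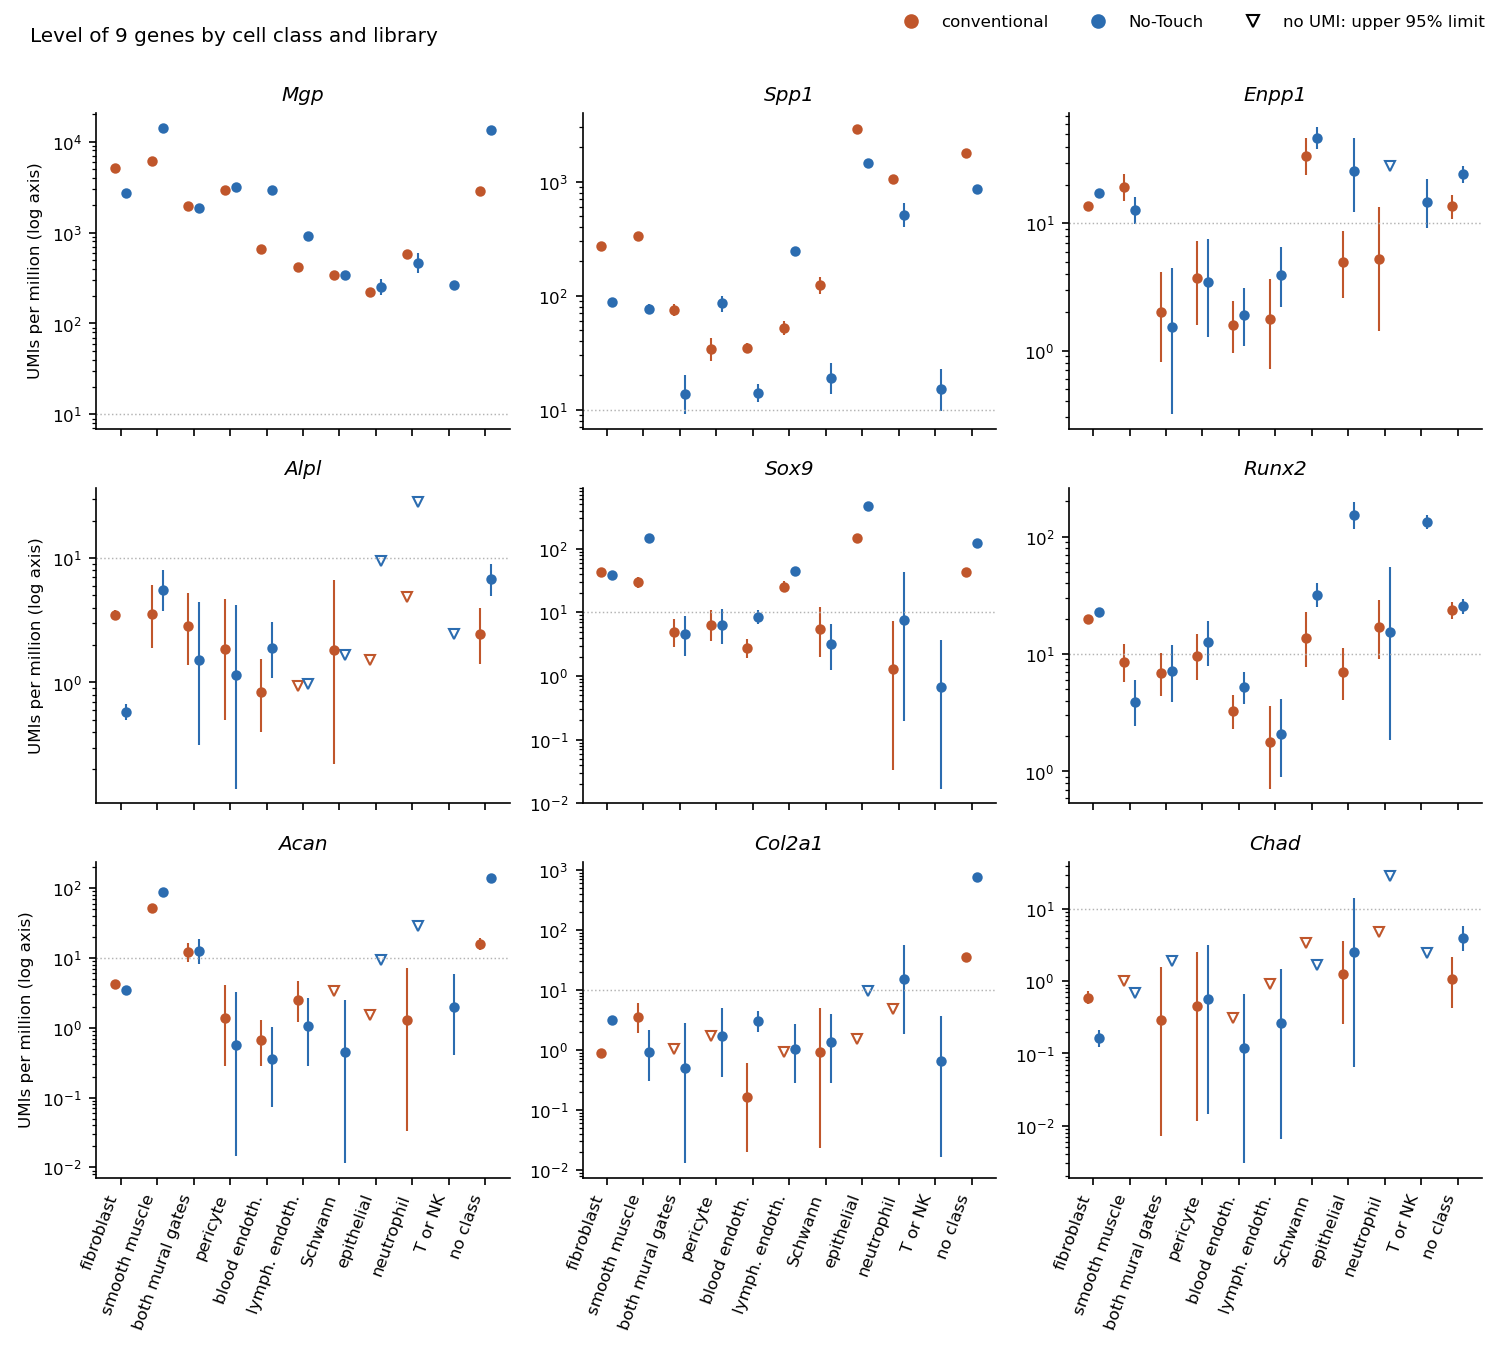
Level of each of the 9 genes by cell class and library, in UMIs per 1000000 on a log axis, with exact 95% counting intervals; triangles give the upper limit where no UMI was counted, and classes of under 10 cells in a library are left out. Mgp spans 221 to 14273 CPM in the classes drawn, and Chad is at 1.24 CPM or below in the gated classes of at least 50 cells.

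Mgp was by far the most abundant of the 9 genes, at 4523 CPM (4514 to 4532) over all conventional and 3106 CPM (3100 to 3112) over all No-Touch cells. The difference had opposite signs in the classes of the vessel wall. Conventional fibroblasts stood at 5149 CPM (5137 to 5160) and No-Touch fibroblasts at 2706 CPM (2701 to 2712). Smooth muscle cells stood at 6186 CPM (6105 to 6267) and 14273 CPM (14172 to 14374), and blood endothelial cells at 664 CPM (650 to 679) and 2977 CPM (2940 to 3014). Mgp was thus 1.90 times higher in conventional fibroblasts, but 2.31 times higher (2.27 to 2.34) in No-Touch smooth muscle cells and 4.48 times higher (4.37 to 4.60) in No-Touch blood endothelial cells. Pericytes were close together at 2925 and 3180 CPM, as were cells that lay between the smooth muscle and pericyte gates, at 1958 and 1876 CPM. Fibroblasts held 89.4% of all conventional and 78.0% of all No-Touch Mgp UMIs.

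Single cells show where these sums came from. In fibroblasts median cells had 1111 CPM (conventional) and 1132 CPM (No-Touch) of Mgp, so the typical cells of the libraries were alike. The upper cells were not, with 90th percentiles of 15874 and 7118 CPM. In smooth muscle cells the medians were 487 and 6750 CPM and the lower quartiles 249 and 715 CPM. The conventional median lay in the range of background given below and the conventional lower quartile under it. The size of the difference in typical smooth muscle cells is therefore not known. In blood endothelial cells the medians were 345 and 540 CPM, both in the range of background, and the 90th percentiles 1422 and 6366 CPM. Most of the blood endothelial difference thus lay in the upper cells.

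**Figure D2:**
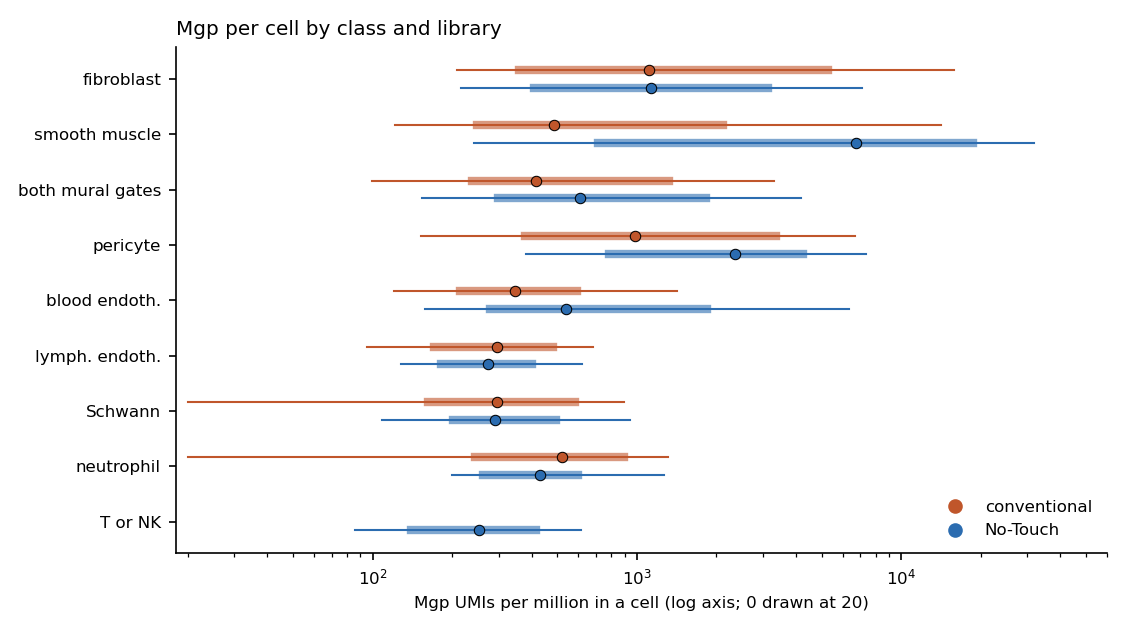
Mgp UMIs per 1000000 in single cells on a log axis, by class and library; the dot is the median, the thick bar spans the 25th to 75th percentile and the thin line the 10th to 90th percentile, with 0 drawn at 20 and classes of under 10 cells in a library left out. The smooth muscle medians stand at 487 and 6750, while the fibroblast medians, 1111 and 1132, lie side by side.

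The finer gates place these differences further. Among blood endothelial cells, those high in Cytl1, a small secreted protein also made by cartilage, had the highest Mgp, at 9161 CPM in 10 conventional and 11937 CPM in 39 No-Touch cells. Their shares of the blood endothelial cells were 1.23% and 9.97%. In the remaining cells Mgp was at 567 and 1899 CPM, a ratio of 3.35, so the difference was present outside the Cytl1 cells too. The conventional value lay in the range of background given below, so the size of that ratio is not known. Summed fibroblast markers in blood endothelial cells were at 1029 and 1766 CPM and smooth muscle markers at 281 and 631 CPM. Their part in the Mgp difference was not tested.

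Fibroblast and pericyte markers in smooth muscle cells were lower in the No-Touch library, where Mgp was higher. Summed fibroblast markers stood at 4563 and 3663 CPM, and summed pericyte markers at 3469 and 1923 CPM. Blood endothelial markers were at 201 and 139 CPM, while perineurial markers were at 86.3 and 147 CPM and chondrocyte markers at 2.74 and 10.6 CPM. The smooth muscle markers themselves stood at 20819 and 23013 CPM, and the part of any of these in the Mgp difference was not tested.

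A floor for so abundant a gene was taken from classes that are not known to make it. The source of the Mgp counts in those classes was not tested. No-Touch T or NK cells, which are not known to make Mgp, had 264 CPM (239 to 291), with a median of 11148 UMIs per cell. Neutrophils, with medians of 2609 and 3973 UMIs, had 576 and 467 CPM. Schwann cells at 343 and 338 CPM and epithelial cells at 221 and 253 CPM lay in or below that range, and Mgp there cannot be told apart from background. In lymphatic endothelial cells Mgp was at 416 and 916 CPM, but 1 No-Touch cell held 2227 of the 3502 UMIs. Without the highest cell of each library the values were 377 and 340 CPM, again in that range.

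Within fibroblasts Mgp was spread unevenly over cells chosen by genes outside the 9. Cells high in Mmp13, a collagenase of cartilage and bone, had 10924 and 4173 CPM. Cells high in the interferon-induced chemokines Cxcl9 and Cxcl10 had 8711 and 1600 CPM, the widest gap among the 10 gates. Cells high in Gdf10, a factor of the BMP family, had 8606 and 4091 CPM. At the other end, cells high in Pi16, Dpp4 and Cd248, markers of adventitial progenitors, had 1026 and 1569 CPM, and cycling cells high in Mki67 and Top2a had 986 and 2933 CPM. Mgp was higher in the No-Touch library in 5 of the 10 gates and lower in 5. The genes of these gates come from earlier results of these data, and a cell can pass more than 1 of them.

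**Figure D3:**
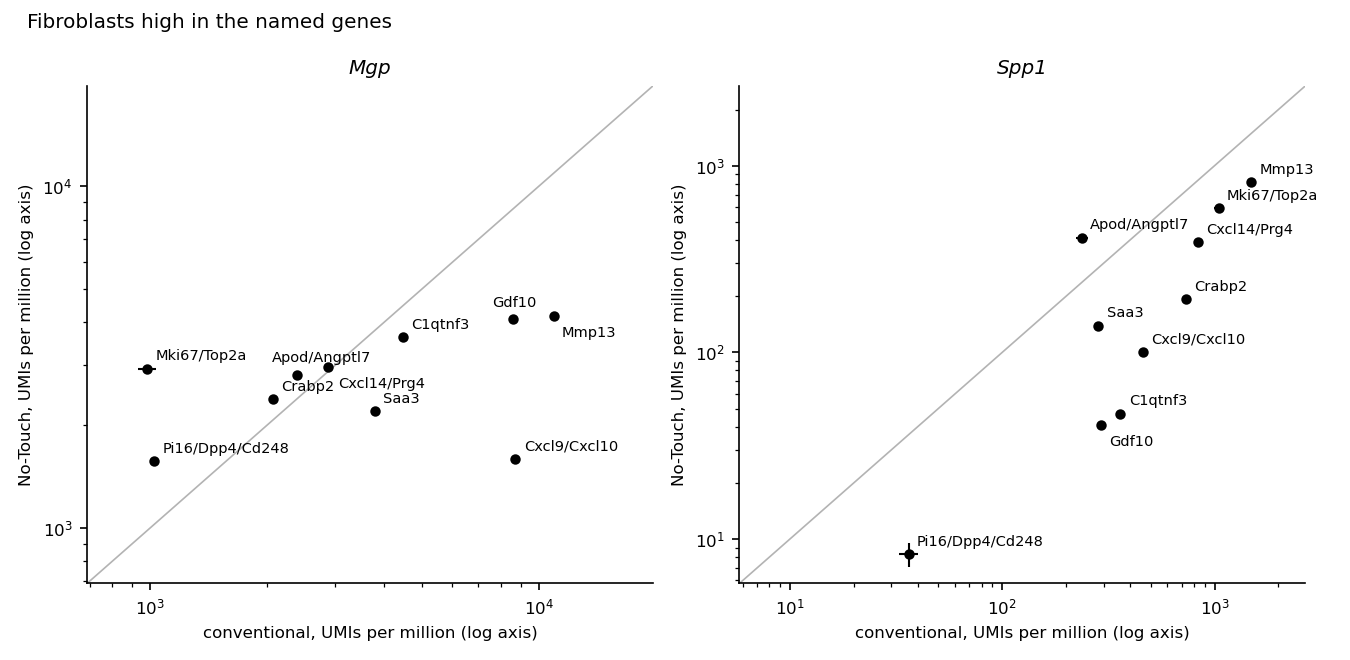
Mgp (left) and Spp1 (right) in fibroblasts high in the named genes, in UMIs per 1000000 on log axes, conventional against No-Touch, with exact 95% counting intervals; the line marks equal levels. Mgp points fall on both sides of the line, and 9 of the 10 Spp1 points lie below it.

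Enpp1, the pyrophosphate-making enzyme, was low in all classes. It stood at 13.7 CPM (13.1 to 14.3) in conventional and 17.3 CPM (16.9 to 17.8) in No-Touch fibroblasts, and at 19.2 CPM (14.95 to 24.2) and 12.7 CPM (9.83 to 16.1) in smooth muscle cells. Schwann cells had the highest level of the 6 classes compared, at 33.9 CPM (23.9 to 46.7) and 46.8 CPM (38.2 to 56.7). The conventional interval overlapped that of conventional smooth muscle cells. In the No-Touch library 1 Schwann cell held 27 of 104 UMIs, and without the highest cell of each library the levels were 29.7 and 35.2 CPM. The intervals of the libraries overlapped in both Schwann and smooth muscle cells. With each cell thinned to 5000 UMIs the shares of fibroblasts with an Enpp1 UMI were 5.13% and 5.17%, against 15.1% and 20.6% unthinned, and 8.82% of thinned No-Touch T or NK cells had one. Within fibroblasts the level was concentrated in cells high in Crabp2, a carrier of retinoic acid, at 58.5 and 63.6 CPM, and in cells high in Mmp13, at 42.6 and 65.8 CPM. Cells high in Pi16, Dpp4 and Cd248 had 2.57 and 3.00 CPM.

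Alpl was lower in No-Touch fibroblasts, at 3.51 CPM (3.22 to 3.82) against 0.579 CPM (0.501 to 0.667). Both values are under 10 CPM and so outside the counts of genes apart given below. The level was lower in the No-Touch library in all 10 fibroblast gates. It was highest in conventional cells high in Cxcl14 and Prg4, a chemokine and the lubricant proteoglycan of joints, at 14.6 CPM (13.1 to 16.2), against 1.17 CPM (0.561 to 2.15) in the No-Touch library. Smooth muscle cells had 3.56 and 5.59 CPM, from 13 and 30 UMIs, with overlapping intervals.

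Spp1 levels were 359 CPM over all conventional and 103 CPM over all No-Touch cells. In fibroblasts it was at 271 CPM (269 to 274) and 88.4 CPM (87.4 to 89.4), 3.07 times higher in the conventional library. In smooth muscle cells it was at 330 CPM (312 to 349) and 76.9 CPM (69.7 to 84.7), in blood endothelial cells at 34.6 CPM (31.3 to 38.0) and 14.1 CPM (11.7 to 16.9), and in Schwann cells at 123 CPM (103 to 145) and 18.9 CPM (13.6 to 25.5). The sum was lower in the No-Touch library in each of these 4 classes. The No-Touch values of blood endothelial and Schwann cells were not apart from the 15.3 CPM (9.67 to 22.9) of T or NK cells. Whether T or NK cells make Spp1 themselves was not tested, so the size of the difference there is not known. In pericytes and lymphatic endothelial cells the sums went the other way, at 34.1 and 85.1 CPM and at 52.2 and 246 CPM. There 1 No-Touch cell held 123 of 148 and 784 of 942 UMIs. Without the highest cell of each library the values were 32.5 and 14.6 CPM in pericytes and 45.5 and 42.0 CPM in lymphatic endothelial cells.

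Spp1 was carried by few cells. In fibroblasts 41 of 6838 conventional and 35 of 9257 No-Touch cells held 50% of its UMIs. With thinning to 5000 UMIs, the shares of fibroblasts with a UMI were 19.7% (18.7 to 20.7) and 9.16% (8.57 to 9.77). The unthinned shares were 50.2% and 31.3%, with median depths of 20224 and 32232 UMIs. The thinned No-Touch share was no higher than the 10.8% (5.51 to 18.5) of T or NK cells. At this depth a single UMI there could not be told apart from that level, while the sum of 88.4 CPM lay above the 15.3 CPM of T or NK cells. The conventional library held 3 T or NK cells, too few for the same comparison. Unthinned, 291 of 816 conventional blood endothelial cells and 76 of 279 conventional neutrophils also had an Spp1 UMI. How much of the conventional fibroblast share is background is therefore not known. Conventional neutrophils were at 1055 CPM of Spp1, with 453 of 806 UMIs in 1 cell. In smooth muscle cells 1 cell held 36.8% of the conventional and 47.9% of the No-Touch UMIs, and without the highest cells the levels were 210 and 40.4 CPM.

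By fibroblast gate, Spp1 was lower in the No-Touch library in 9 of 10. Cells high in Mmp13 had the most, at 1485 and 814 CPM, followed by cycling cells at 1047 and 592 CPM and by cells high in Cxcl14 and Prg4 at 832 and 389 CPM. The lowest were cells high in Pi16, Dpp4 and Cd248, at 36.3 and 8.27 CPM. The exception was cells high in Apod and Angptl7, at 238 and 412 CPM. Outside the 6 classes, cells of the epithelial gate had 2917 and 1466 CPM of Spp1 in 120 and 16 cells. Markers of the parathyroid gland summed to 165258 and 60263 CPM in that gate. The median cells there had 2477 and 0 CPM.

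Sox9 was even over the libraries as a whole, at 40.9 CPM (40.1 to 41.8) and 41.2 CPM (40.6 to 41.9). In smooth muscle cells the conventional level was 29.9 CPM (24.5 to 36.0) and the No-Touch level 150 CPM (140 to 160), 5.01 times higher (4.10 to 6.18). Fibroblasts had 44.0 CPM (42.9 to 45.03) and 38.6 CPM (37.9 to 39.2). The smooth muscle difference was a difference in the share of cells too. With thinning to 5000 UMIs, a Sox9 UMI was found in 6.35% (3.67 to 10.1) of the conventional smooth muscle cells, and in 33.3% (27.8 to 39.2) of those of the No-Touch library, against 16.03% and 44.0% unthinned. In No-Touch T or NK cells it was 0 of 102, which allows a share of up to 2.94%. The highest cell held 6.34% of the No-Touch smooth muscle UMIs, and 19 cells held 50% of them.

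In lymphatic endothelial cells Sox9 was at 25.5 CPM (20.8 to 31.0) and 44.7 CPM (38.3 to 52.0), but the thinned shares, 9.83% and 8.92%, overlapped. In blood endothelial cells the values were 2.75 and 8.52 CPM, and 1 No-Touch cell held 47 of 72 UMIs. Among fibroblasts the cells high in Apod and Angptl7 had the most Sox9, at 81.9 and 111 CPM. The epithelial gate had 150 and 473 CPM, the second value from 16 cells.

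Runx2 was low in stromal classes. It was at 19.7 CPM (19.0 to 20.4) in conventional and 22.7 CPM (22.1 to 23.2) in No-Touch fibroblasts, and at 8.49 CPM (5.77 to 12.1) and 3.91 CPM (2.42 to 5.98) in smooth muscle cells, from 31 and 21 UMIs. In Schwann cells it was at 13.7 CPM (7.69 to 22.7) and 31.9 CPM (24.9 to 40.3), from 15 and 71 UMIs, 2.33 times higher (1.32 to 4.37) in the No-Touch library. After thinning, 5.44% (1.79 to 12.2) and 8.70% (4.57 to 14.7) of Schwann cells had a UMI, which overlap. The highest level of a class with at least 50 cells was in No-Touch T or NK cells, at 134 CPM (116 to 154). Runx2 and Sox9 thus did not move together in smooth muscle cells, where Sox9 was the higher in the No-Touch library and Runx2 was not.

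Of the 6 classes compared, smooth muscle cells were the only one with Acan above 10 CPM in either library. It was at 52.1 CPM (44.9 to 60.0) in conventional and 89.4 CPM (81.6 to 97.7) in No-Touch smooth muscle cells, 1.72 times higher (1.45 to 2.04). In cells that lay between the smooth muscle and pericyte gates it was at 12.1 and 12.7 CPM. The thinned shares of smooth muscle cells, 9.92% (6.52 to 14.3) and 12.5% (8.90 to 17.0), overlapped, and unthinned they were 12.6% and 24.5%. With the deepest 5% of cells left out the log2 ratio moved from 0.77 to -0.01 and the libraries were level. Of smooth muscle cells with a Sox9 UMI, 26.2% of 42 conventional and 30.7% of 124 No-Touch cells also had an Acan UMI, against 10.0% of 220 and 19.6% of 158 cells without one. Cells with a Sox9 UMI were deeper, with medians of 18294 against 11745 and of 20174 against 16232 UMIs, and the part of depth was not tested. Acan in fibroblasts was at 4.203 and 3.44 CPM. Those high in C1qtnf3, a secreted protein of the C1q/TNF-related family, had 37.3 CPM (32.7 to 42.4) and 6.95 CPM (6.19 to 7.78).

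Col2a1 was at 2.08 CPM (1.88 to 2.29) over all conventional and 16.9 CPM (16.4 to 17.3) over all No-Touch cells, and most of it was in very few cells. At least 10 Col2a1 UMIs were found in 6 of 10458 conventional cells, 0.0574% (0.0211 to 0.125), and in 32 of 11525 No-Touch cells, 0.278% (0.190 to 0.392). At a threshold set by depth, 2 UMIs per 10000, they numbered 11 and 42. The 6 and 32 cells held 75.6% and 88.8% of all Col2a1 UMIs. They were deep cells, with medians of 24334 and 48606 UMIs. In all other cells together Col2a1 was at 0.507 and 1.91 CPM, and after thinning it was found in 0.318% and 0.9504% of fibroblasts and in 0.9804% of No-Touch T or NK cells. That last share is 1 cell of 102, too few to set a background for Col2a1. Of the other No-Touch cells, 12 had 5 to 8 Col2a1 UMIs.

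Of the cells with at least 10 Col2a1 UMIs, 3 and 22 passed no class gate, 2 and 10 passed the fibroblast gate and 1 and 0 lay between classes. A Sox9 UMI was found in 5 of 6 and 30 of 32, an Acan UMI in 4 and 23, a Runx2 UMI in 2 and 15, a Chad UMI in 0 and 4 and an Mgp UMI in all of them. Since they were chosen by Col2a1, their other genes are given as a description. Their Mgp level was 52305 and 30655 CPM, against 4486 and 2975 CPM in all other cells. Spp1 was at 9414 and 1660 CPM, Sox9 at 291 and 325 CPM, and Acan at 329 and 461 CPM, against 5.39 and 5.11 CPM of Acan in all other cells. They held 4.58% of the conventional and 30.0% of the No-Touch Acan UMIs.

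Among the cartilage and bone genes of the marker lists the picture in these cells was mixed. Col11a2, a collagen chain of cartilage, was at 0 CPM (upper limit 23.8) in conventional cells, but 157 CPM (139 to 177) in No-Touch cells, and Col9a1 at 51.7 and 62.1 CPM. In the No-Touch cells Col9a3 was at 72.9 CPM and Col9a2 at 11.4 CPM, against 1.59 and 0.386 CPM in all other cells. Cnmd was at 9.11 CPM and Hapln1 at 8.5 CPM, against 0.370 and 0.0946 CPM. Matn3, Snorc and Ucma had 2, 1 and 2 UMIs there, and Matn3, at 1.14 CPM, was not above the 1.36 CPM of other cells. Ibsp, bone sialoprotein, was at 478 and 358 CPM, but in 2 and 4 cells. The other osteoblast markers, Bglap, Bglap2, Sp7, Dmp1, Phex and Ifitm5, had 0 UMIs in the conventional cells. In the No-Touch cells Sp7 was at 7.98, Phex at 7.41, Bglap at 3.99 and Bglap2 at 1.14 CPM. In all other No-Touch cells these were at 0.1135, 1.94, 0.224 and 0.240 CPM. Dmp1, at 0 against 0.381 CPM, and Ifitm5, at 2.85 against 4.395 CPM, were not above other No-Touch cells. Matn1, a matrix protein of mature cartilage, was at 0 CPM in these cells of both libraries, and had 0 UMIs in all other No-Touch cells too. Dcn and Lum, proteoglycans of fibroblasts, were at 2828 and 4358 CPM and at 4061 and 3331 CPM. In all other cells Dcn was higher, at 8286 and 9590 CPM, and Lum lower, at 764 and 1138 CPM. No cell passed the chondrocyte or the osteoblast gate, and the cells are given no cell type name.

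**Figure D4:**
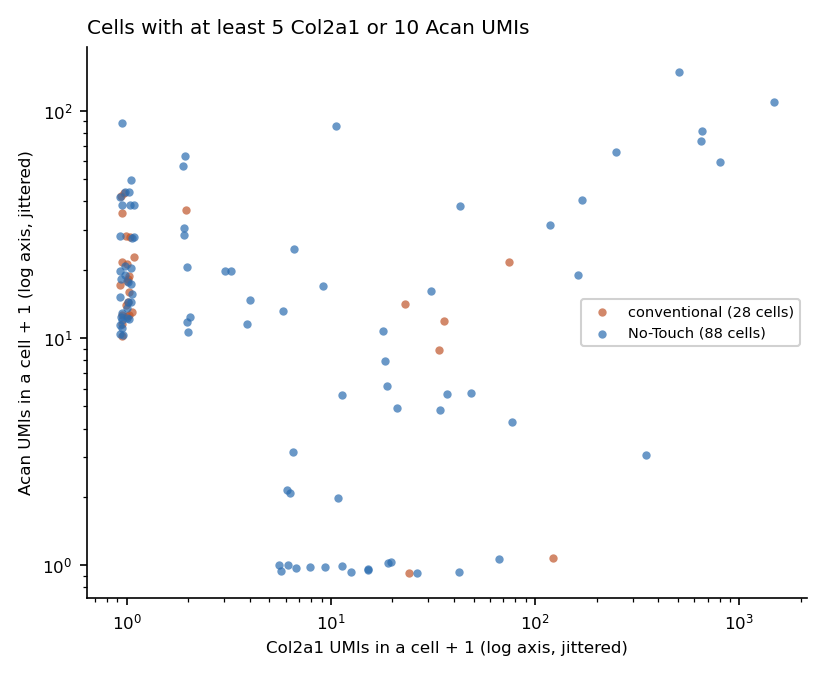
Col2a1 against Acan UMIs per cell, for the 28 conventional and 88 No-Touch cells with at least 5 Col2a1 or 10 Acan UMIs. Cells high in Acan with 0 or 1 Col2a1 UMI number 22 and 40, and cells with at least 10 UMIs of both number 3 and 13.

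Acan also marked cells with little or no Col2a1. Cells with at least 10 Acan UMIs and 0 or 1 Col2a1 UMI numbered 22 in the conventional library, of which 12 were fibroblasts and 6 smooth muscle cells. In the No-Touch library they numbered 40, of which 23 were fibroblasts and 12 smooth muscle cells. Cells with at least 10 UMIs of both genes numbered 3 and 13, and none of them passed the smooth muscle gate. Chad, the last of the cartilage genes, was at 0.552 and 0.247 CPM over all cells. It had 0 UMIs in smooth muscle cells of both libraries, with upper limits of 1.01 and 0.687 CPM, and 92 and 54 UMIs in fibroblasts.

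Neighbouring classes were compared by their counting intervals. Over the classes of at least 50 cells, 9 conventional and 8 No-Touch ones, 0 of 8 and 0 of 7 neighbouring pairs of Mgp levels had overlapping intervals. The lower places include the classes named above as in the range of background. The place of No-Touch lymphatic endothelial cells rests on 1 cell, without which they stood at 340 CPM (321 to 359), overlapping Schwann cells at 338 CPM (314.5 to 363). For Spp1 the overlapping pairs were 1 of 8 and 5 of 7, for Sox9 5 and 5, for Acan 6 and 5, for Enpp1 7 and 5 and for Runx2 8 and 4. For Alpl they were 8 and 6, for Col2a1 7 and 7 and for Chad 8 and 7, so the classes are nearly unordered for these 3 genes.

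Counted by a 2-fold rule among genes reaching 10 CPM in 1 library or both, the 9 genes stand against a background that differs by class. In fibroblasts 5 were tested, with 0 higher and 1, Spp1, lower in the No-Touch library, while of all genes tested 1.65% were higher and 1.31% lower. In smooth muscle cells 5 were tested, with Mgp and Sox9 higher and Spp1 lower, against 6.07% and 4.56% of all genes. In blood endothelial cells 2 were tested, with Mgp higher and Spp1 lower, against 4.21% and 1.59%. In Schwann cells 4 were tested, with Runx2 higher and Spp1 lower, against 6.45% and 4.82%. In pericytes 1 of 3, Spp1, was higher and 0 lower, against 4.75% and 2.63%. In lymphatic endothelial cells Mgp and Spp1 of 3 were higher and 0 lower, against 3.18% and 1.84%. Without the single cells named above Spp1 was lower instead of higher in pericytes, and 0 of the 3 genes were apart in lymphatic endothelial cells.

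The split of all genes into higher and lower depends on the scaling. In smooth muscle cells 539 were higher and 405 lower, but 407 and 493 with TMM scaling and 391 and 515 with median-of-ratios scaling. In blood endothelial cells 365 and 138 became 255 and 197 or 253 and 199, and in pericytes 422 and 234 became 296 and 305 with median-of-ratios scaling. These scalings lowered the median log2 ratio of all genes by up to 0.12 in those classes. Mgp, Sox9 and Spp1 kept the directions given for smooth muscle cells, fibroblasts and blood endothelial cells under both.

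**Figure D5:**
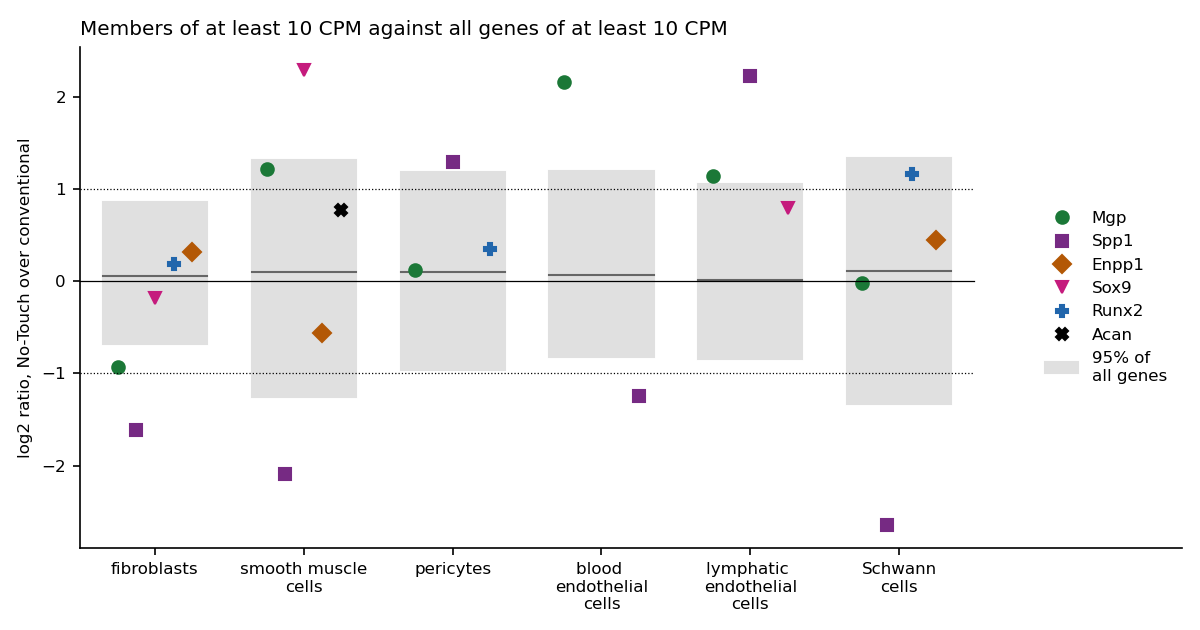
Log2 ratio of No-Touch over conventional CPM for the members of at least 10 CPM in each of 6 classes; the grey band spans the middle 95% of all genes tested in that class and dotted lines mark a 2-fold difference. Sox9 and Mgp stand above the 2-fold line in smooth muscle cells, at 2.29 and 1.21, and Spp1 below it in 4 classes.

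Genes around the 9 were counted in the same way from lists made by function. A gene named from them with under 20 CPM in both libraries was chosen after its values were seen, to account for a count. In smooth muscle cells 2 of 9 tested genes of mineralisation and phosphate handling were at least 2 times higher and 0 lower. They were Ank, which exports ATP and pyrophosphate, at 26.6 and 60.0 CPM, and Entpd1, an ectonucleotidase, at 38.4 and 89.7 CPM. Of 5 genes of vitamin K dependent carboxylation, the step that Mgp needs, 1 was higher and 0 lower. It was Nqo1, a quinone reductase, at 3.56 and 14.5 CPM. Gas6, a vitamin K dependent ligand of TAM receptors, was at 198 and 368 CPM there. Gas6 was also higher in the No-Touch library in the other 5 classes, from 523 and 757 CPM in fibroblasts to 21.7 and 46.6 CPM in pericytes. Of 11 chondrogenic genes 4 were higher and 2 lower. Ogn, a small proteoglycan, was at 125 and 357 CPM, Cytl1 at 1.10 and 16.9 CPM, Cilp at 6.03 and 16.2 CPM and Omd at 4.66 and 11.9 CPM. Lower were Fmod and Prg4 at 160 and 19.7 CPM and at 72.9 and 19.4 CPM.

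Of 20 BMP genes tested in smooth muscle cells 3 were higher and 5 lower, against 6.07% and 4.56% of all genes. Id2 and Smad6, targets of BMP signals, were at 137 and 406 CPM and at 15.3 and 48.8 CPM, and the ligand Gdf10 at 22.5 and 47.1 CPM. Lower were the BMP inhibitors Grem1, at 42.5 and 3.35 CPM, Chrdl1, at 41.9 and 19.0 CPM, and Fst, at 194 and 90.3 CPM, the co-receptor Eng, at 86.3 and 41.7 CPM, and the ligand Bmp5, at 23.3 and 7.08 CPM. Of 10 receptors and proteases of osteopontin 2 were higher and 2 lower. The integrin chains Itga8 and Itga9 were at 225 and 725 CPM and at 68.8 and 151 CPM, while the receptor Cd44 was at 295 and 133 CPM and the protease Mmp3 at 90.1 and 36.5 CPM. Of 8 osteogenic genes 1 was higher, Col10a1 at 4.11 and 11.7 CPM, and 0 lower. Sparc, a collagen-binding glycoprotein, was at 6237 and 3598 CPM.

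Fewer of all genes were 2 times apart in fibroblasts than in smooth muscle cells, by the shares given above, and counts in these lists are to be read against that. In fibroblasts 0 of 10 mineralisation genes were higher and 1, Ahsg, was lower, at 15.7 and 6.77 CPM. Ahsg encodes fetuin-A, a blood-borne inhibitor of mineral made by the liver. Of the other lists 0 of 4 vitamin K genes, 0 of 8 osteogenic genes and 0 of 8 osteopontin receptors and proteases were 2 times apart, and of 11 chondrogenic genes 0 were higher and 1 lower. The chondrogenic gene was Prg4, at 722 and 216 CPM. Of 21 BMP genes 2 were higher and 1, Grem1, was lower, at 32.7 and 6.12 CPM. The BMP inhibitor Chrdl1 was at 17.1 and 37.9 CPM and Id2 at 67.5 and 136 CPM.

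In blood endothelial cells 4.21% of all genes tested were higher and 1.59% lower. Of 17 BMP genes 5 were higher and 0 lower there. They were the ligands Bmp4, at 90.4 and 263 CPM, and Bmp6, at 16.3 and 69.7 CPM, the receptor Bmpr1a, at 8.66 and 18.6 CPM, and the targets Id2, at 47.3 and 116 CPM, and Smad6, at 12.9 and 34.6 CPM. Of 7 chondrogenic genes 2 were higher, Cytl1 at 12.3 and 213 CPM and Matn2 at 5.08 and 11.4 CPM, and 1, Prg4, was lower at 31.7 and 9.47 CPM. Of 5 osteogenic genes 1 was higher and 0 lower, and the transcription factor Twist1 was at 7.58 and 52.8 CPM. In pericytes Bmp2 was at 91.3 and 44.3 CPM, the 1 of 17 BMP genes that was lower, and 0 were higher. Of all genes tested in pericytes 2.63% were lower and 4.75% higher. In Schwann cells 6.45% of all genes tested were higher and 4.82% lower. Of 5 osteogenic genes 3 were higher and 0 lower there. Cbfb, the partner of RUNX factors, was at 41.2 and 84.6 CPM, and Tnfsf11 and Twist1 were at 5.49 and 13.5 CPM and at 2.75 and 11.3 CPM. In the conventional Schwann cells 3 counts correspond to 2.75 CPM, so the conventional values of Tnfsf11 and Twist1 rest on few counts. Col11a1 was at 57.7 and 174 CPM in Schwann cells, and Cnmd, chondromodulin, at 21.1 and 0.450 CPM.

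The genes whose level was most like that of each member were taken over the 17 sums of a class in a library with at least 50 cells, which share 2 libraries, by Pearson correlation of log2 CPM. For Mgp they were Ccn2 (0.93), Bgn (0.91) and Sulf1 (0.88), for Spp1 Il6ra (0.80), Pla2g7 (0.77) and Arfgef2 (0.75), and for Sox9 Myh10 (0.86), Ier2 (0.85) and Foxp2 (0.85). For Runx2 they were Ttc39c (0.90), Leprotl1 (0.87) and Plekhj1 (0.85), and for Enpp1 Celf2 (0.87) and Tnik (0.85). For Acan they were Susd5 (0.95), Hspb7 (0.94) and Cnn1 (0.93), the last of which is a marker of the smooth muscle gate. Alpl was most like Atoh8 (0.89), Col2a1 most like Txndc5 (0.81) and Chad most like Nsun7 (0.81), but these 3 members were under 10 CPM in all 17 sums.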

How the data were processed

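The deposited counts are UMIs per gene and cell barcode in 1 filtered matrix for each of 2 libraries, and groups were taken from the sample titles. Per the submitters' processing notes they were made with Cell Ranger 3.1.0 on mm10, while per the file headers the deposited counts were written by version 6.0.0, and this could not be settled. Strand use in counting was not stated. The deposited counts sum to 200851272 UMIs over 11899 conventional and 373319906 over 12450 No-Touch barcodes, and 22 barcodes occur in both.

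Barcodes were required to have 500 genes, 1000 UMIs and a mitochondrial share of 10% or less. A cell passed a class gate when at least 50% of the class markers had 2 UMIs per 10000 and led the next class by 15 percentage points. No doublet caller was run. Cells that reached 50% in a class but led the next class by less were set aside (390 and 331), except smooth muscle with pericyte. In 687 and 356 cells, called cells of no class, the leading class did not reach 50%. Finer gates took cells with the summed UMIs of the named genes at 3 times the class mean or more. The 9 genes, the lists and the finer gates were chosen with earlier results of these data known, and the gate limits were set after the data were seen.

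UMIs were summed per class and library and scaled to counts per 1000000 (CPM), and log2 ratios are of CPM + 1. Exact intervals follow Garwood (counts) or Clopper and Pearson (shares). A share of 0 is given the limit of 3 counts, and upper limits printed for a level of 0 CPM are those of the exact interval. A gene was counted as apart at 2-fold and 10 CPM or more in either library. UMIs of 1 cell are not independent samples, so intervals cover counting error only. Shares of cells with a UMI were compared after thinning each cell to 5000 UMIs. Named genes are the 9, the 3 most correlated genes for each (of at least 50 CPM in 1 of the sums), and up to 4 per list and class with the largest log2 ratio and at least 20 CPM. Not all of them are printed, and 1 result is not reported here. Alternatives covered scaling (TMM in edgeR 4.0.16, median of ratios in DESeq2 1.42.0, both for scaling only), the filters, the gates, depth and single cells. The scripts recovered known ratios when tested on simulated data. Python 3.11.15, numpy 2.4.6, scipy 1.17.1, pandas 2.3.3, matplotlib 3.10.9 and R 4.3.3 were used.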

Additional observations from a re-analysis of the deposited data

Results flagged for a closer look

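Among classes where the gene reached 10 CPM in 1 library or both, 4 of the 9 genes differed between the libraries in opposite directions, with intervals of the ratio on either side of 1, and with 1 library per group the differences between classes were not tested. For Mgp the log2 ratio of No-Touch over conventional was 2.16 in blood endothelial cells and -0.93 in fibroblasts, a difference of 3.09. For Sox9 it was 2.29 in smooth muscle cells and -0.18 in fibroblasts, a difference of 2.47. For Spp1 it was 2.22 in lymphatic endothelial cells and -2.64 in Schwann cells, a difference of 4.85, and the first of these values came from 1 No-Touch cell with 784 of 942 UMIs, while the No-Touch Schwann cell level, 18.9 CPM (13.6 to 25.5), was not apart from that of T or NK cells. For Enpp1 it was 0.32 in fibroblasts and -0.56 in smooth muscle cells, a difference of 0.88, from 70 and 68 UMIs in the smooth muscle cells. With lower levels included, Runx2, Acan and Col2a1 also differed in opposite directions between fibroblasts and smooth muscle cells. Their ratios were 1.15 and 0.460, 0.819 and 1.72, and 3.56 and 0.261. The smooth muscle ratios of Runx2 and Col2a1 came from 31 and 21 UMIs and from 13 and 5 UMIs. For Acan the libraries were level in smooth muscle cells without the deepest 5% of cells, and the thinned shares overlapped. In fibroblasts without the cells of at least 10 Col2a1 UMIs, Col2a1 was at 0.458 CPM in the conventional and 1.76 CPM in the No-Touch library.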

How the results depend on the processing

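No paired analysis was possible because each group is 1 library. Of 78 counts of members apart recomputed under the alternatives, 55 stayed within 1.5 times of the value reported and 23 did not. Of 220 log2 ratios 149 stayed within counting error, 65 moved further and 6 reversed, and of 108 differences in shares of cells 29 moved. The counts reported were 1 in fibroblasts, 3 in smooth muscle cells, 1 in pericytes, 2 in blood endothelial, 2 in lymphatic endothelial and 2 in Schwann cells. With no filter on low values they were 4, 5, 3, 6, 6 and 4. At 50 CPM 1 was left in blood endothelial and 1 in Schwann cells, and at 1.5-fold there were 2 in fibroblasts and 5 in smooth muscle cells. A mitochondrial limit of 5% left 1 in Schwann cells. With cells of 2 classes kept, pericytes had 0 and lymphatic endothelial cells 1. Without the deepest 5% of cells, fibroblasts had 2 and lymphatic endothelial cells 1. With each cell weighted equally, pericytes had 0 and lymphatic endothelial cells 1, and with cells thinned to 5000 UMIs lymphatic endothelial and Schwann cells had 1 each. In 2 alternatives added after seeing the data, lymphatic endothelial cells had 0 without the cell with most UMIs of the gene, and with markers counted from 1 UMI per 10000 pericytes had 2, blood endothelial cells 5 and Schwann cells 1. The causes were not tested beyond what each alternative changes.

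The reversed log2 ratios were those of Spp1 in pericytes, at -0.26 with cells of 2 classes kept and -1.10 without the highest cell, against 1.29 as reported. In lymphatic endothelial cells Mgp was at -0.22 without the deepest cells and -0.15 without the highest cell, against 1.14, and Spp1 at -0.21 and -0.12, against 2.22. In the same alternatives Sox9 in smooth muscle cells stayed at 2.17 or above, Mgp ranged from 1.09 to 1.41 in smooth muscle and from 1.83 to 2.21 in blood endothelial cells, and Spp1 from -1.73 to -1.32 in fibroblasts and from -3.12 to -1.60 in smooth muscle cells. Enpp1 in fibroblasts was at -0.01 after thinning, and Runx2 in Schwann cells ranged from 0.45 to 1.73. Depth limits Alpl, Col2a1 and Chad, which were under 10 CPM in all 6 classes, and pericytes and Schwann cells, which held 114 to 232 cells a library.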

Other observations

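Cells that passed no class gate numbered 687 and 356, 6.57% and 3.09% of the kept cells. Their summed levels of several of the 9 genes were high, but a few cells carried them, and the Col2a1 cells that passed no gate are among the cells summed. Their Mgp level was 2834 CPM (2793 to 2875) for conventional and 13476 CPM (13389 to 13563) for No-Touch cells, Sox9 at 43.0 and 126 CPM and Acan at 15.7 and 138 CPM. For Mgp 8 of 687 and 10 of 356 cells held 50% of the UMIs, and the median cells had 493 and 434 CPM, in the range of background. Spp1 was at 1767 and 855 CPM. These cells held 2.08% and 7.93% of all Mgp UMIs, 55.6% and 82.0% of all Col2a1 UMIs and 9.25% and 34.7% of all Acan UMIs. Of those with a Sox9 UMI, 10 of 82 conventional and 38 of 90 No-Touch cells had an Acan UMI, against 6 of 605 and 3 of 266 of the others, with medians of 16352 against 5736 and of 34320 against 10458 UMIs.

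The cell with most Col2a1, a No-Touch cell with 96184 UMIs, had 1397 Col2a1, 102 Acan, 97 Col11a2 and 617 Ibsp UMIs, and so held most of the Ibsp counted in the No-Touch cells with at least 10 Col2a1 UMIs.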
